A study of Mus musculus with 12 samples.

Results

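The matrix metalloproteases (Mmp), the Adam and Adamts proteases, the Adamts-like proteins (Adamtsl) and the Timp inhibitors were followed across WT and Pak1 knockout murine embryonic fibroblasts (MEFs), with and without ionizing radiation. Members were all probe sets that carried exactly 1 gene symbol, where that symbol began with Mmp, Adam, Adamts, Adamtsl or Timp and a digit. This gave 66 of the 16755 probe sets on the arrays, for 65 genes, as Adam23 has 2 probe sets: 20 are Mmp, 26 Adam, 12 Adamts, 4 Adamtsl and 4 Timp. A further 4 probe sets that name several family genes at once were left out, and family genes with no such probe set, Adam17 among them, were not analysed here.

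Total RNA was hybridised to Affymetrix Mouse Exon 1.0 ST arrays, 1 array per sample and 3 samples in each of 4 groups. WT was untreated MEFs with Pak1, KO was untreated MEFs of Pak1-/- embryos, and WT-IR and KO-IR were the same genotypes after ionizing radiation. Pak1 encodes a serine/threonine kinase that acts downstream of small GTPases, and the study asked which transcripts depend on it with and without DNA damage. The MEFs came from C57Bl6J embryos of age E13.5. Every group, the WT groups included, was immortalised with SV40 T antigen, a viral protein that blocks p53. Pak1 was ablated in the whole animal, so the KO cells had lacked it through development. How many embryos or lines stand for each genotype is not given in the sources used here. Nor are the total dose and the time from irradiation to harvest. The paper's list of genes most lowered in KO cells holds Eif2s3y, which it calls Y-linked, and also Ddx3y and Uty. A difference of sex or line between WT and KO cells was not tested, and it would run with genotype in both comparisons of the genotypes. The triplicates are labelled biological replicates, but nothing says that they were separate cultures, so a p-value here covers no more than the spread between arrays.

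Mmp, Adam and Adamts proteins are zinc proteases that are made with an inhibitory propeptide. Secreted and membrane-type Mmps cut collagens, gelatin and other matrix proteins, Adams sit in the membrane and release the outer parts of growth factors, receptors and adhesion proteins, and Adamts proteases are secreted and cut proteoglycans and procollagens. Adamts-like proteins have the matrix-binding part without the protease, and Timps bind the active site and block it. Fibroblasts make many of these proteins and are a main source of them in connective tissue.

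The deposited values are log2 values in which each probe set has its median over the arrays at 0. A value of 1 is therefore a level 2 times that median, no absolute level is known, and levels of different genes cannot be set side by side. Array medians ran from -0.0201 to 0.018, the correlation of an array with its own group ran from 0.836 to 0.917, and the genotypes separated on the first principal component, with 85.6% of the variance. Of 13 fibroblast markers, all measured, 4 were higher and 5 lower in KO than in WT at the adjusted p. Their log2 fold changes ran from -2.33 (Pdgfra) to 1.29 (Thy1), with a median of 0.0075, so the list did not move in one direction. Their mean was 0.122 to 0.181 on the WT arrays, -0.148 to -0.0925 on KO, 0.127 to 0.146 on WT-IR and -0.229 to -0.217 on KO-IR. Of 7 macrophage markers 6 were measured, and 1 was higher (Cd14, log2 fold change 0.41) and 1 lower (Csf1r, -2.26). Their mean was 0.136 to 0.200 on WT arrays and -0.179 to -0.143 on KO arrays, while the median of their log2 fold changes was -0.027. Of endothelial markers 1 of 6 measured and of epithelial markers 1 of 5 measured was higher. These counts stand beside 43.2% of all probe sets past the adjusted p in this comparison, 21.5% higher and 21.7% lower. Because the values are centred, whether a marker is present or absent cannot be read from them, and the part of these shifts in the results below was not tested. In bulk RNA, fewer cells that express a gene and less RNA per cell cannot be told apart.

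Between KO and WT the families did not move as a block: 2 members were at least 2-fold higher and 3 at least 2-fold lower. Adam8 and Adamtsl5 rose, and Mmp16, Mmp2 and Adam12 fell. All tests are from limma on the 12 arrays with Benjamini-Hochberg adjustment across the 16755 probe sets, and a call needs a 2-fold change with an adjusted p under 0.05. The 5 called members are 7.58% of 66, where 4.42% of all probe sets were called, 2.44% higher and 1.98% lower. At the adjusted p with no fold threshold, 29 members passed, 13 higher and 16 lower, or 43.9% beside 43.2% of all probe sets, of which 21.5% were higher and 21.7% lower. With a 1.5-fold threshold 11 members passed, where 12.5% of all probe sets did. The members thus changed about as often as the array as a whole, and the median size of their log2 fold changes was 0.121 beside 0.127 over all probe sets. Which genes changed, and in which direction, is given by role below.

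**Figure D1:**
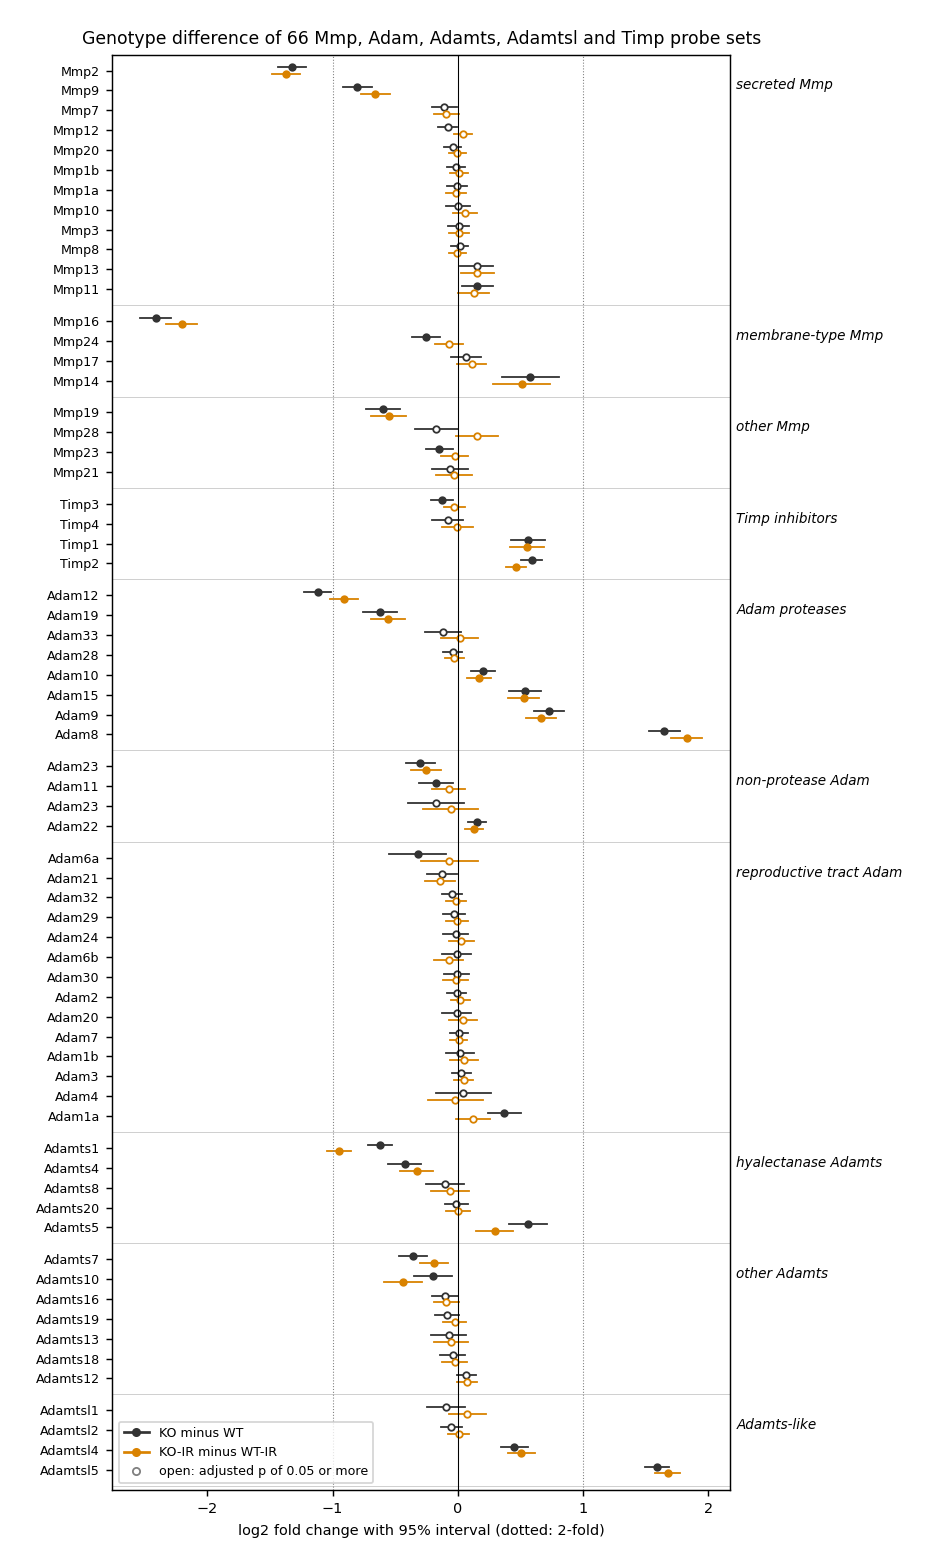
Log2 fold change of each of the 66 probe sets between the genotypes, with its 95% interval, grouped by role; dark points are KO minus WT, orange points KO-IR minus WT-IR, open points have an adjusted p of 0.05 or more, and dotted lines mark 2-fold. Adam23 stands on 2 rows, one for each of its probe sets. Mmp16, at -2.41 and -2.20, and Adam8, at 1.65 and 1.83, lie farthest from 0 on either side.

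Mmp16, a membrane-type matrix metalloprotease, had the largest difference of all members. Its value was 1.37, 1.25 and 1.25 on the WT arrays and -1.19, -1.12 and -1.06 on the KO arrays. With irradiation it was 1.20, 1.07 and 1.04 in WT-IR and -1.16, -1.10 and -1.04 in KO-IR, so that the lowest WT or WT-IR array stood more than 2 log2 units above the highest KO or KO-IR array. The log2 fold change was -2.41 (SE 0.056, adjusted p = 1.66e-11) between KO and WT, a 5.31-fold lower level, and -2.20 (SE 0.056, adjusted p = 2.64e-11) between KO-IR and WT-IR. Mmp14, the membrane-type protease that activates pro-Mmp2, went the other way. It was at -0.36, -0.30 and -0.39 in WT and at 0.23, 0.37 and 0.09 in KO, with no overlap, and rose by 0.58 (SE 0.104, adjusted p = 0.000603). In WT-IR it was at -0.05, -0.33 and -0.41 and in KO-IR at 0.05, 0.31 and 0.38, which gave 0.51 (SE 0.104, adjusted p = 0.00144) without overlap, although WT-IR replicate 1 and KO-IR replicate 1 lay close together. Of the other membrane-type members, Mmp24, known from the nervous system, was 0.25 log2 units lower in KO than in WT (adjusted p = 0.0014) and at -0.07 (adjusted p = 0.323) between KO-IR and WT-IR, and Mmp17 did not pass in either.

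Both gelatinases fell in the KO cells. Mmp2, the gelatinase that fibroblasts secrete, was at 0.69, 0.68 and 0.73 in WT and at -0.63, -0.54 and -0.71 in KO. In the irradiated cells it was at 0.54, 0.61 and 0.65 in WT-IR and -0.74, -0.73 and -0.84 in KO-IR. The genotypes did not overlap, and the log2 fold changes were -1.33 (SE 0.050, adjusted p = 9.85e-10) and -1.37 (SE 0.050, adjusted p = 5.98e-10), or 2.51-fold and 2.59-fold lower. Mmp9, the other gelatinase, was at 0.41, 0.35 and 0.42 in WT and -0.51, -0.37 and -0.35 in KO, and at 0.28, 0.29 and 0.36 in WT-IR and -0.37, -0.28 and -0.42 in KO-IR. Its arrays also separated by genotype, with changes of -0.80 (SE 0.053, adjusted p = 1.09e-07) and -0.66 (SE 0.053, adjusted p = 5.43e-07), 1.74-fold and 1.58-fold lower and short of the 2-fold threshold. Mmp19, which cuts basement membrane proteins, was at 0.21 to 0.37 on the WT arrays and -0.36 to -0.26 on KO, and at 0.20 to 0.22 on WT-IR and -0.43 to -0.20 on KO-IR. It fell by 0.60 (SE 0.063, adjusted p = 6.76e-06) and by 0.55 (SE 0.063, adjusted p = 1.19e-05). The remaining Mmps past the adjusted p were Mmp11, a stromelysin, at 0.16 in KO against WT (adjusted p = 0.046), and Mmp23, at -0.15 (adjusted p = 0.0271). Neither passed between KO-IR and WT-IR, where they were at 0.13 (adjusted p = 0.106) and -0.02 (adjusted p = 0.779). Without KO-IR replicate 3, Mmp11 did pass there, at 0.20 (adjusted p = 0.0047). The call of Mmp11 between KO and WT was lost with the replicate number as a block (adjusted p = 0.0718). It was also lost without any one array other than WT replicate 3, KO-IR replicate 1 or KO-IR replicate 3 (adjusted p from 0.0528 to 0.147). That of Mmp23 was lost without WT replicate 1, WT replicate 2 or KO replicate 3 (adjusted p from 0.058 to 0.112). Mmp23 also did not pass with the methods' t-test (adjusted p = 0.108) or in a limma fit of only KO and WT (0.0556).

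A separate group was formed by the 9 measured Mmp genes that lie beside each other on chromosome 9: the collagenases Mmp1a, Mmp1b, Mmp8 and Mmp13, the stromelysins Mmp3 and Mmp10, the matrilysin Mmp7, the macrophage elastase Mmp12 and the enamel protease Mmp20. None of the 9 passed the adjusted p in any of the comparisons, and over all of them and all 12 arrays the values stayed between -0.186 and 0.156. Their log2 fold changes lay between -0.11 and 0.15 for KO against WT (smallest adjusted p = 0.072) and between -0.09 and 0.16 for KO-IR against WT-IR (smallest adjusted p = 0.0593), and the 95% intervals reached from -0.21 to 0.29. Of all probe sets 43.2% and 44.6% passed in the same comparisons. Without the absolute signal, a gene that is off in all 4 groups and a gene at a constant level give the same values here.

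The starts of these genes are shown because several stromelysins and collagenases are textbook targets of the transcription factor AP-1, a dimer of Jun and Fos proteins. The windows hold 250 bases before to 30 bases after the transcription start, from RefSeq (GRCm38.p6), and 40 of the 65 genes had such a window, with 45 windows in all. Capitals mark the AP-1 site TGAGTNA, the TATA box TATAAA and the GC box GGGCGG on either strand. Mmp13 lies on the plus strand at chr9:7272264-7272543, Mmp3 on the plus strand at chr9:7445572-7445851 and Mmp10 on the plus strand at chr9:7502092-7502371.
Mmp13: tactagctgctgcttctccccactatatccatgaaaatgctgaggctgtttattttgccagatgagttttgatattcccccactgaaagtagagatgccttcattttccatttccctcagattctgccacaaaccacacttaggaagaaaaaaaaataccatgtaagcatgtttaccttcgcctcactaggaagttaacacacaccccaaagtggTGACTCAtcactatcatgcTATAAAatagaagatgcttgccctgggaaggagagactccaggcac
Mmp3: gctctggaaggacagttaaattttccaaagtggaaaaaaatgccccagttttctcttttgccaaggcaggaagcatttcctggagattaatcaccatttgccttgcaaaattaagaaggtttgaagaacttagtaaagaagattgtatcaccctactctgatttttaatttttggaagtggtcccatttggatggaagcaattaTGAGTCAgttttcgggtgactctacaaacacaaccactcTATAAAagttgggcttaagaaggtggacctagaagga
Mmp10: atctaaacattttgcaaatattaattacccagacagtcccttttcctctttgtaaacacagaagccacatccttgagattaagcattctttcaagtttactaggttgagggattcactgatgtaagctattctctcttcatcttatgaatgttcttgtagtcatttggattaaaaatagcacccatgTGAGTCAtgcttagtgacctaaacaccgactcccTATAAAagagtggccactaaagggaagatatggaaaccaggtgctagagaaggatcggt
Each of the 3 windows holds an AP-1 site followed by a TATA box and no GC box. Of the 11 windows of the chromosome 9 genes, 7 (63.6%) hold the AP-1 letters, 9 (81.8%) the TATA box and 0 the GC box, beside 13.9%, 13.1% and 34.7% of the 32851 mouse promoter windows of the same length. The 34 other member windows hold them in 14.7%, 17.6% and 52.9%. A match describes the letters only and does not show binding.

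Among the inhibitors, Timp1 and Timp2 rose in the KO cells, while Timp3 fell slightly without irradiation and Timp4 passed in neither comparison. Timp1, a secreted inhibitor of most Mmps, was at -0.25, -0.17 and -0.12 in WT and 0.38, 0.42 and 0.34 in KO, and at -0.43, -0.32 and -0.22 in WT-IR and 0.12, 0.31 and 0.25 in KO-IR. The genotypes did not overlap, with log2 fold changes of 0.56 (SE 0.062, adjusted p = 1.08e-05) and 0.55 (SE 0.062, adjusted p = 1.16e-05). Timp1 lies on chromosome X, and a difference of sex between WT and KO cells was not tested. Timp2, which blocks Mmps and also takes part in the activation of pro-Mmp2 by Mmp14, was at -0.32, -0.35 and -0.34 in WT and 0.27, 0.23 and 0.26 in KO. It was at -0.22, -0.19 and -0.24 in WT-IR and 0.19, 0.27 and 0.29 in KO-IR, again without overlap, and rose by 0.59 (SE 0.037, adjusted p = 7.68e-08) and 0.47 (SE 0.037, adjusted p = 5.26e-07). Mmp14 and Timp2, partners in that step, were thus both higher in KO cells while Mmp2 itself was lower. Timp3, the matrix-bound inhibitor that also blocks Adam and Adamts proteases, was at -0.01, -0.05 and -0.04 in WT and -0.16, -0.16 and -0.15 in KO, a fall of 0.12 (SE 0.040, adjusted p = 0.0235). This call was lost after quantile normalization (adjusted p = 0.059) and without WT replicate 1, WT replicate 3, KO replicate 1 or KO replicate 2 (adjusted p between 0.0524 and 0.0717). Between KO-IR and WT-IR Timp3 was at -0.03 (adjusted p = 0.67). Timp4 was at -0.08 (95% interval -0.21 to 0.04, adjusted p = 0.291) and at -0.00 (-0.13 to 0.12, adjusted p = 0.968).

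**Figure D2:**
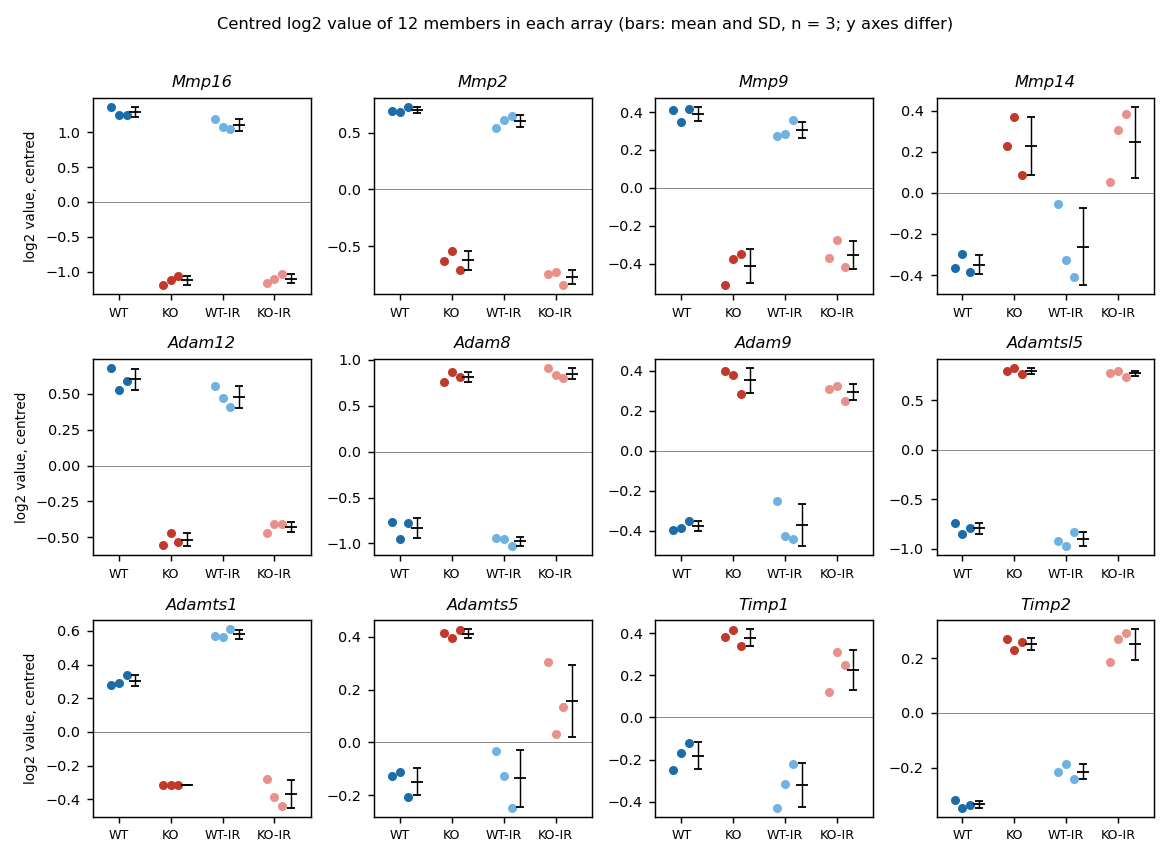
Centred log2 value of 12 members on each array, as points coloured by group, with the mean and SD (n = 3) beside each group; the y axes differ between panels. The WT and WT-IR points lie on one side of the KO and KO-IR points in each panel, and for Adamts1 the WT-IR points (0.56 to 0.61) also lie above the WT points (0.28 to 0.34).

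Of the 8 measured Adams that are broadly expressed active proteases, 4 were higher and 2 lower in KO, in both comparisons of the genotypes. Of all probe sets 43.2% passed in either direction without irradiation and 44.6% with it. Adam8, a sheddase best known from leukocytes and osteoclasts, rose most. It was at -0.77, -0.95 and -0.78 in WT and 0.77, 0.87 and 0.81 in KO, and at -0.94, -0.95 and -1.03 in WT-IR and 0.91, 0.84 and 0.80 in KO-IR. The arrays of the genotypes were far from overlapping, and the log2 fold changes were 1.65 (SE 0.056, adjusted p = 3.6e-10) and 1.83 (SE 0.056, adjusted p = 1.28e-10), 3.13-fold and 3.54-fold. Adam9, a widely expressed membrane protease, was at -0.39, -0.38 and -0.35 in WT and 0.40, 0.38 and 0.28 in KO, and at -0.25, -0.42 and -0.44 in WT-IR and 0.31, 0.32 and 0.25 in KO-IR. It did not overlap and rose by 0.73 (SE 0.053, adjusted p = 2.86e-07) and 0.66 (SE 0.053, adjusted p = 5.77e-07). Adam15, a membrane protease disintegrin, rose by 0.54 (adjusted p = 7.35e-06) and 0.52 (adjusted p = 7.84e-06). For Adam10, the main sheddase of Notch receptors and cadherins, the rise was small: its arrays lay between -0.20 and -0.06 in WT, 0.03 and 0.10 in KO, -0.08 and -0.03 in WT-IR and 0.07 and 0.16 in KO-IR. The groups did not overlap, and the log2 fold changes were 0.20 (SE 0.044, adjusted p = 0.00237) and 0.17 (SE 0.044, adjusted p = 0.00658), 1.15-fold and 1.13-fold.

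The Adams that fell were Adam12 and Adam19, both meltrins of mesenchymal cells. Adam12 cuts insulin-like growth factor binding proteins and releases epidermal growth factor ligands, and it was at 0.68, 0.53 and 0.59 in WT and -0.56, -0.47 and -0.53 in KO. In the irradiated cells it was at 0.56, 0.47 and 0.41 in WT-IR and -0.47, -0.41 and -0.41 in KO-IR. It did not overlap between the genotypes, and the log2 fold changes were -1.12 (SE 0.051, adjusted p = 4.45e-09) and -0.91 (SE 0.051, adjusted p = 2.39e-08). It therefore passed the 2-fold threshold without irradiation (2.17-fold) and stayed under it with irradiation (1.88-fold), while the test of the difference between these changes gave 0.21 (adjusted p = 0.263). Adam19, which processes neuregulins, was at 0.26 to 0.37 on WT and -0.42 to -0.17 on KO arrays, and at 0.17 to 0.27 on WT-IR and -0.36 to -0.34 on KO-IR arrays, and fell by 0.62 (SE 0.061, adjusted p = 3.89e-06) and 0.56 (SE 0.061, adjusted p = 9e-06). Adam11, Adam22 and Adam23 lack a working protease site and are known as neuronal surface proteins. Adam22 rose by 0.15 (adjusted p = 0.00231) and 0.13 (adjusted p = 0.00733). Of the probe sets of Adam23, one fell by 0.30 (SE 0.053, adjusted p = 0.000555) and 0.25 (adjusted p = 0.00173), and the other, with a larger SE of 0.101, was at -0.17 (adjusted p = 0.208) and -0.06 (adjusted p = 0.734), so that both estimates had the same sign. Adam11 fell by 0.17 in KO against WT (adjusted p = 0.0342), with arrays that overlap. Of 21 listed Adams of the reproductive tract 14 were measured, and 1 was higher (Adam1a, 0.37, adjusted p = 0.000293) and 1 lower (Adam6a, -0.32, adjusted p = 0.0246, with arrays that overlap) in KO against WT. None of the 14 passed between KO-IR and WT-IR, and their log2 fold changes there ran from -0.14 to 0.12. The shares of all probe sets that passed were 43.2% for KO against WT and 44.6% for KO-IR against WT-IR. Without WT replicate 1, WT replicate 2 or KO replicate 3, neither Adam11 nor Adam6a passed (adjusted p from 0.0589 to 0.142), and Adam11 did not pass without KO replicate 1 either (adjusted p = 0.0657). Both calls were also lost with the methods' t-test (adjusted p = 0.19 and 0.23) and in a limma fit of only KO and WT (0.0829 and 0.0805).

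The window around the start of Adam8, the most increased member, lies on the minus strand at chr7:139992533-139992812 (RefSeq, GRCm38.p6), with its GC box, read as CCGCCC on the complement, in capitals.
Adam8: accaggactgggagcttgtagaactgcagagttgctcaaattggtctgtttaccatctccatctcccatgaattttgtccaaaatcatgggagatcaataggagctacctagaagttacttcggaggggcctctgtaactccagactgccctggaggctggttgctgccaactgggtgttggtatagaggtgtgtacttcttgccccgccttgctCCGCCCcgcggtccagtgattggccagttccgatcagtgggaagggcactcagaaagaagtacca
It has no TATAAA and no TGAGTNA. Of the 11 windows of members that were higher in KO than WT at the adjusted p, 9 (81.8%) hold a GC box, 0 a TATA box and 1 an AP-1 site. The 10 windows of members that were lower hold them 5, 2 and 1 times. They stand for 7 genes, with 3 windows of Adam19 and 2 of Mmp23, and Mmp16, Mmp2, Adam12 and Mmp9 are not among them, so the windows leave out the members that fell most. The 24 windows of members that did not pass hold a GC box 4 times, a TATA box 13 times and an AP-1 site 10 times. Since 11 of those 24 windows are those of the chromosome 9 genes, the counts describe these genes and were not tested.

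In the Adamts group, Adamts1 and Adamts4 fell and Adamts5 rose, although all 3 cut the large proteoglycans versican and aggrecan. Adamts1 was at 0.28, 0.29 and 0.34 in WT and at -0.32 on each of the 3 KO arrays (SD 0.00078), and at 0.57, 0.56 and 0.61 in WT-IR and -0.28, -0.39 and -0.44 in KO-IR. No WT or WT-IR array overlapped with a KO or KO-IR array. The log2 fold changes were -0.62 (SE 0.043, adjusted p = 1.72e-07) and -0.95 (SE 0.043, adjusted p = 3.88e-09), 1.54-fold and 1.93-fold lower, and after quantile normalization the second passed the 2-fold threshold (-1.01). Adamts4 was at 0.28, 0.25 and 0.28 in WT and -0.20, -0.12 and -0.15 in KO, and at 0.07, 0.14 and 0.14 in WT-IR and -0.07, -0.35 and -0.22 in KO-IR, with falls of 0.42 (SE 0.060, adjusted p = 8.38e-05) and 0.33 (SE 0.060, adjusted p = 0.000605). Adamts5 was at -0.13, -0.11 and -0.21 in WT and 0.41, 0.40 and 0.43 in KO, and at -0.03, -0.13 and -0.25 in WT-IR and 0.30, 0.03 and 0.14 in KO-IR. It rose by 0.56 (SE 0.069, adjusted p = 2.63e-05) without irradiation and by 0.29 (SE 0.069, adjusted p = 0.00371) with it. The groups did not overlap, although the lowest KO-IR array lay just above the highest WT-IR array. Adamts1 and Adamts5 are direct neighbours on chromosome 16 and so moved in opposite directions side by side. Smaller falls were those of Adamts7, a protease of cartilage oligomeric matrix protein, by 0.36 (adjusted p = 7.85e-05) and 0.19 (adjusted p = 0.00776), and of Adamts10, which binds fibrillin, by 0.20 (adjusted p = 0.0348) and 0.44 (adjusted p = 0.000188). The smaller fall of Adamts10 did not pass without any one of the 3 WT replicates or without KO replicate 3 (adjusted p from 0.062 to 0.145). With the methods' t-test it did not pass either (adjusted p = 0.0861). The procollagen N-propeptidases Adamts2, Adamts3 and Adamts14 were not analysed here.

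Adamtsl5, an Adamts-like protein that binds fibrillin, changed most among the proteins without a protease domain. Its values were -0.74, -0.85 and -0.79 in WT and 0.79, 0.82 and 0.77 in KO, and -0.92, -0.97 and -0.83 in WT-IR and 0.78, 0.79 and 0.74 in KO-IR. No array overlapped between the genotypes, with log2 fold changes of 1.59 (SE 0.045, adjusted p = 7.7e-11) and 1.67 (SE 0.045, adjusted p = 4.25e-11), 3.01-fold and 3.19-fold. Adamtsl4, of the eye's fibrillin fibres, rose by 0.45 (adjusted p = 1.18e-05) and 0.51 (adjusted p = 3.83e-06). The windows of Adamtsl5, the most increased gene of this group, and of Adamts1, which passed with irradiation in WT cells as given below, are both on the minus strand, at chr10:80348419-80348698 and chr16:85803084-85803363 (RefSeq, GRCm38.p6).
Adamtsl5: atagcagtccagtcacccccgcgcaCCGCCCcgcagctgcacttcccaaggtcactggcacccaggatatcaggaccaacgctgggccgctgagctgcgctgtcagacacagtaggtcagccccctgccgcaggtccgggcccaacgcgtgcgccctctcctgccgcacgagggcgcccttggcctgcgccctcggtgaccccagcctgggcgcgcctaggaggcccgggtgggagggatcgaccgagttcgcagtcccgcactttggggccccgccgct
Adamts1: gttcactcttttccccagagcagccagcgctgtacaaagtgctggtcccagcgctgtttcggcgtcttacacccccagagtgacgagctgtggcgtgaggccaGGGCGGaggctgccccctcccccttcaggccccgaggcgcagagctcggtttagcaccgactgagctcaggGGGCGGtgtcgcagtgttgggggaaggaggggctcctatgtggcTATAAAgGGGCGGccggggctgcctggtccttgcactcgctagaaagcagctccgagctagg
The capitals in Adamtsl5 are 1 GC box, and those in Adamts1 are 3 GC boxes and a TATA box.

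In the irradiated cells, which are other arrays than the untreated ones, fewer members differed between the genotypes. Between KO-IR and WT-IR 4 members were called, 2 higher (Adam8, Adamtsl5) and 2 lower (Mmp16, Mmp2), or 6.06%, where 5.06% of all probe sets were called, 2.96% higher and 2.09% lower. At the adjusted p 22 members passed, 11 in each direction, or 33.3%, beside 44.6% of all probe sets, of which 23.4% were higher and 21.2% lower. With a 1.5-fold threshold 8 members passed, where 14.2% of all probe sets did. The members' share at the adjusted p was lower here than the background, as was the median size of their log2 fold changes, 0.0713 beside 0.132. All 22 members that passed here had also passed between KO and WT and had the same direction, and all 4 called here had been called there. A further 7 passed in KO against WT alone: Mmp11, Mmp23, Mmp24, Adam1a, Adam6a, Adam11 and Timp3. In the test of the difference between the comparisons these 7 had adjusted p of 0.28 or more, so that they are not shown to differ with irradiation. The other 37 passed in neither.

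**Figure D3:**
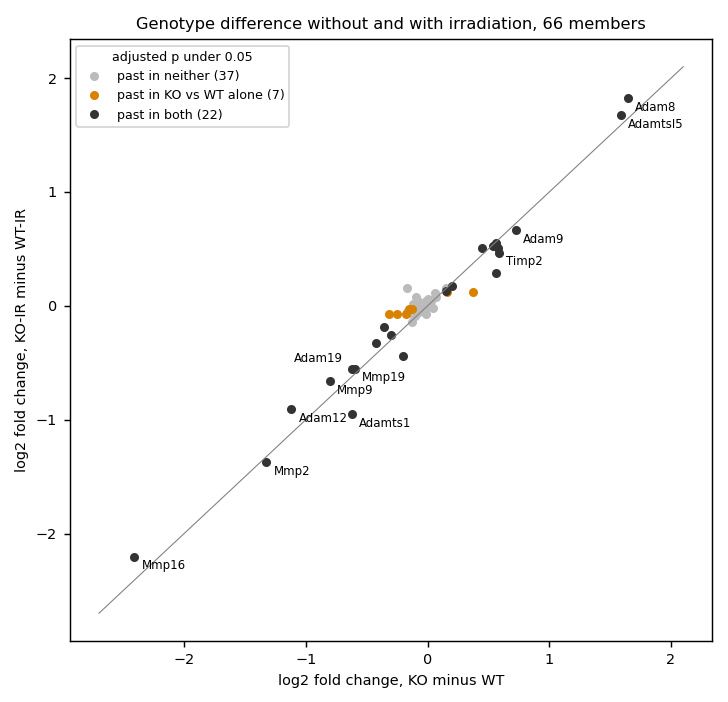
Log2 fold change of the 66 probe sets for KO minus WT on the x axis and KO-IR minus WT-IR on the y axis, which come from separate arrays; the line marks equal values, and members at 1.5-fold or more in KO against WT are named. Dark points (22) passed the adjusted p in both, orange points (7) in KO against WT alone and grey points (37) in neither. Adamts1 lies below the line, at -0.62 and -0.95.

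Radiation itself moved few members. No member was called at 2-fold between WT-IR and WT, where 0.00597% of all probe sets were called, between KO-IR and KO (0.143%), or in the interaction of genotype and irradiation (0.149%), the change with irradiation in KO cells minus that in WT cells. These 3 comparisons share arrays with each other and with those above. At the adjusted p 1 member passed in each, where 2.48%, 6.3% and 1.37% of all probe sets did. At an unadjusted limma p under 0.05, 14 of the 66 members passed for WT-IR against WT, 9 for KO-IR against KO and 12 for the interaction. Of all 16755 probe sets, 3021, 3163 and 1869 passed in the same order.

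The member that passed in WT cells was Adamts1. With the values given above, each WT-IR array stood above each WT array, and the log2 fold change was 0.28 (SE 0.043, adjusted p = 0.00772), or 1.21-fold. In KO cells the groups overlapped, at -0.05 (SE 0.043, adjusted p = 0.61). The interaction was -0.33 (SE 0.061, 95% interval -0.46 to -0.20, adjusted p = 0.0204), the only interaction among the members past the adjusted p. It moved to an adjusted p between 0.0517 and 0.062 without WT replicate 1, WT replicate 2, KO replicate 1, KO-IR replicate 2 or any one of the 3 WT-IR replicates, with values of -0.34 to -0.31, and with the replicate number as a block it was 0.0509. The call between WT-IR and WT was lost with the methods' t-test (adjusted p = 0.0707 after Benjamini-Hochberg).

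In KO cells the member that passed was Timp3. It moved from -0.16, -0.16 and -0.15 in KO to 0.01, 0.13 and 0.11 in KO-IR, without overlap, a rise of 0.24 (SE 0.040, adjusted p = 0.00413) or 1.18-fold. In WT cells it moved from -0.01, -0.05 and -0.04 to 0.15, 0.12 and 0.07, also without overlap, by 0.14 (SE 0.040, adjusted p = 0.0867). This rise in WT cells passed after quantile normalization (0.18, adjusted p = 0.0331) and without KO-IR replicate 1 (adjusted p = 0.0444). Timp3 thus stood higher on every irradiated array than on every unirradiated array of its genotype, and the difference between the changes was 0.10 (adjusted p = 0.571). With the methods' t-test the rise in KO cells had an adjusted p of 0.125, and in a fit of those 2 groups alone one of 0.05001, just on the other side of the threshold. Adamts5 went from 0.41, 0.40 and 0.43 in KO to 0.30, 0.03 and 0.14 in KO-IR, at -0.25 (SE 0.069, adjusted p = 0.051), and was at 0.01 (adjusted p = 0.943) in WT cells. This fall in KO cells passed with the replicate number as a block (adjusted p = 0.0424), with 1-symbol probe sets only (adjusted p = 0.0476), and without WT-IR replicate 1 (adjusted p = 0.0463), WT-IR replicate 3 (adjusted p = 0.0435) or KO-IR replicate 1 (-0.33, adjusted p = 0.00887). Mmp16 was at -0.18 between WT-IR and WT (adjusted p = 0.114) and Mmp2 at -0.15 between KO-IR and KO (adjusted p = 0.12).

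**Figure D4:**
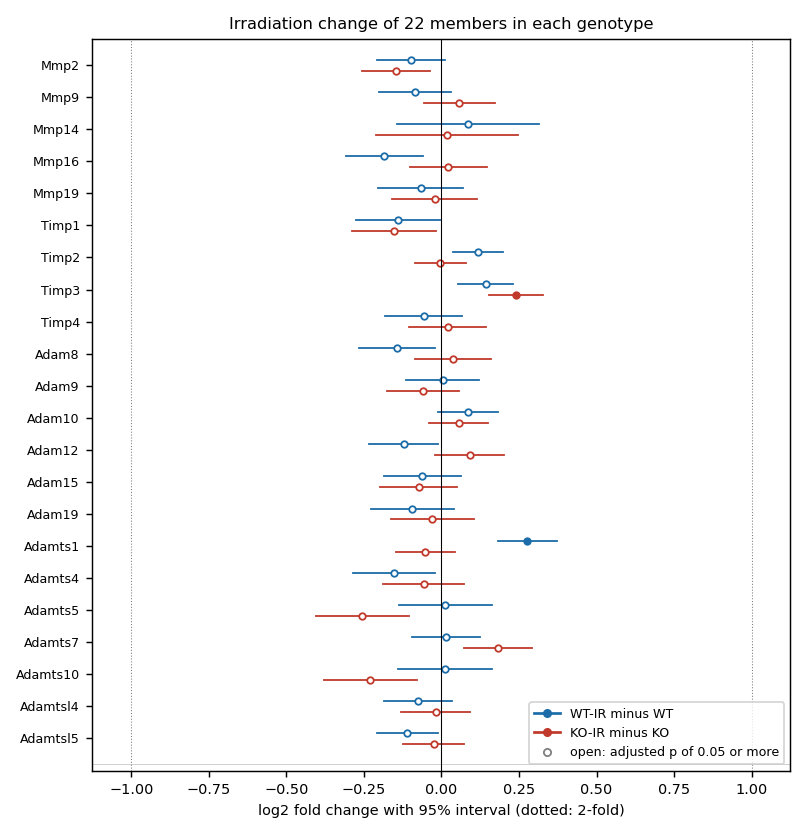
Log2 fold change with irradiation of 22 members in WT cells (blue, WT-IR minus WT) and KO cells (red, KO-IR minus KO) with 95% intervals; filled points have an adjusted p under 0.05 and dotted lines mark 2-fold. The filled points are Adamts1 in WT cells (0.28) and Timp3 in KO cells (0.24), and no point is near 2-fold.

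Genes that act around these proteases were counted from lists. Reck, a membrane-anchored inhibitor of several Mmps and of Adam10, was at -0.82, -0.88 and -0.84 in WT and 0.84, 0.82 and 0.80 in KO, and at -0.90, -0.90 and -0.80 in WT-IR and 0.85, 0.99 and 1.02 in KO-IR. No array overlapped between the genotypes, and Reck rose by 1.67 (SE 0.05, adjusted p = 1.05e-10) and 1.82 (SE 0.05, adjusted p = 4.47e-11). It was the 1 of 4 measured non-Timp inhibitors that passed. Of 8 measured activators and activator receptors, 6 were higher and 0 lower in both comparisons, where 21.5% of all probe sets were higher and 21.7% lower without irradiation and 23.4% and 21.2% with it. Plau, the urokinase that makes plasmin, rose by 1.43 (adjusted p = 1.1e-09) and 1.70 (adjusted p = 2.07e-10). It was at -0.70, -0.70 and -0.65 in WT and 0.77, 0.65 and 0.81 in KO, and at -0.71, -0.70 and -0.86 in WT-IR and 1.01, 0.91 and 0.92 in KO-IR. Of the other related genes listed 7 were measured: the tolloids Bmp1, Tll1 and Tll2, the meprins Mep1a and Mep1b, Astl and Adamdec1. The 1 that rose was Tll1, a procollagen C-proteinase, by 1.14 (adjusted p = 1.57e-08) and 1.05 (adjusted p = 3.02e-08). Among 9 partners and regulators of the Adam sheddases, 4 were higher and 1 lower in KO against WT, and 5 and 1 in KO-IR against WT-IR, beside 43.2% and 44.6% of all probe sets that passed in either direction. With irradiation of KO cells 1 of the 9 rose and 1 fell. Rhbdf2, an inactive rhomboid that brings Adam17 to the cell surface, rose by 0.64 (SE 0.06, adjusted p = 4.62e-05), from 0.05, 0.05 and -0.04 in KO to 0.56, 0.72 and 0.69 in KO-IR. It was at -0.06 (adjusted p = 0.648) in WT cells, and its interaction of 0.69 (adjusted p = 0.000917) was the only one of the list past the adjusted p. Its relative Rhbdf1 fell by 0.31 (adjusted p = 0.00758) in KO cells.

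Substrates moved in both directions. Of 25 measured proteins that are known to be shed, 11 were higher and 3 lower in KO against WT, and 12 and 4 in KO-IR against WT-IR, beside 43.2% and 44.6% of all probe sets in either direction. Notch1, a receptor cut by Adam10, rose by 1.10 (adjusted p = 6.07e-10) and 1.65 (adjusted p = 1.51e-11), while its ligand Jag1 fell by 1.07 (adjusted p = 4.53e-09) and 1.12 (adjusted p = 2.58e-09). Met, the hepatocyte growth factor receptor, fell by 1.11 (adjusted p = 1.19e-09) and 1.10 (adjusted p = 1.12e-09), and the growth factor Ereg rose by 0.65 (adjusted p = 0.000338) and 1.06 (adjusted p = 4.76e-06). Of 13 measured matrix substrates of the Adamts proteases and their clearance receptor, 2 were higher and 6 lower in both comparisons, where 21.5% and 23.4% of all probe sets were higher and 21.7% and 21.2% lower. Vcan, the versican core protein, was at 1.04, 1.11 and 1.04 in WT and -1.17, -1.28 and -1.15 in KO, and at 1.12, 1.22 and 1.16 in WT-IR and -1.10, -1.04 and -1.10 in KO-IR. Its log2 fold changes were -2.26 (SE 0.05, adjusted p = 6.26e-12) and -2.25 (SE 0.05, adjusted p = 5.16e-12), and Col3a1, a fibrillar collagen, fell by 1.14 (adjusted p = 6.88e-09) and 1.33 (adjusted p = 1.64e-09). Fibrillar collagens did not all fall: Col1a1 had means of -0.41 in WT, 0.39 in KO, -0.26 in WT-IR and 0.24 in KO-IR. Those of Col1a2 were 0.27, -0.29, 0.29 and -0.63 in the same order.

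Of 10 measured AP-1 and Ets factors, 4 were higher and 4 lower in KO against WT, and 6 and 4 in KO-IR against WT-IR, beside 43.2% and 44.6% of all probe sets in either direction. Jun rose by 0.75 (adjusted p = 4.57e-07) and 1.53 (adjusted p = 7.95e-10), and Junb fell by 1.08 (adjusted p = 1.09e-08) and 0.49 (adjusted p = 9.23e-06). In the interaction 4 of the 10 passed the adjusted p, all above 0, where 1.37% of all probe sets passed: Jun at 0.78 (adjusted p = 0.000478), Junb at 0.59 (adjusted p = 0.00197), Fosl1 at 0.41 (adjusted p = 0.046) and Ets1 at 0.32 (adjusted p = 0.0224). The calls of Fosl1 and Ets1 were lost on leaving out single arrays: Fosl1 did not pass without any one array other than KO replicate 2 or KO-IR replicate 1 (adjusted p from 0.0673 to 0.126), nor Ets1 without any one WT replicate, KO replicate 1, WT-IR replicate 1, WT-IR replicate 2 or KO-IR replicate 3 (adjusted p from 0.0528 to 0.0777). The chromosome 9 Mmp genes, with the AP-1 letters in 7 of 11 windows, had no interaction past the adjusted p, where their values ran from -0.02 to 0.12. A link between these letters or factors and the values was not tested.

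**Figure D5:**
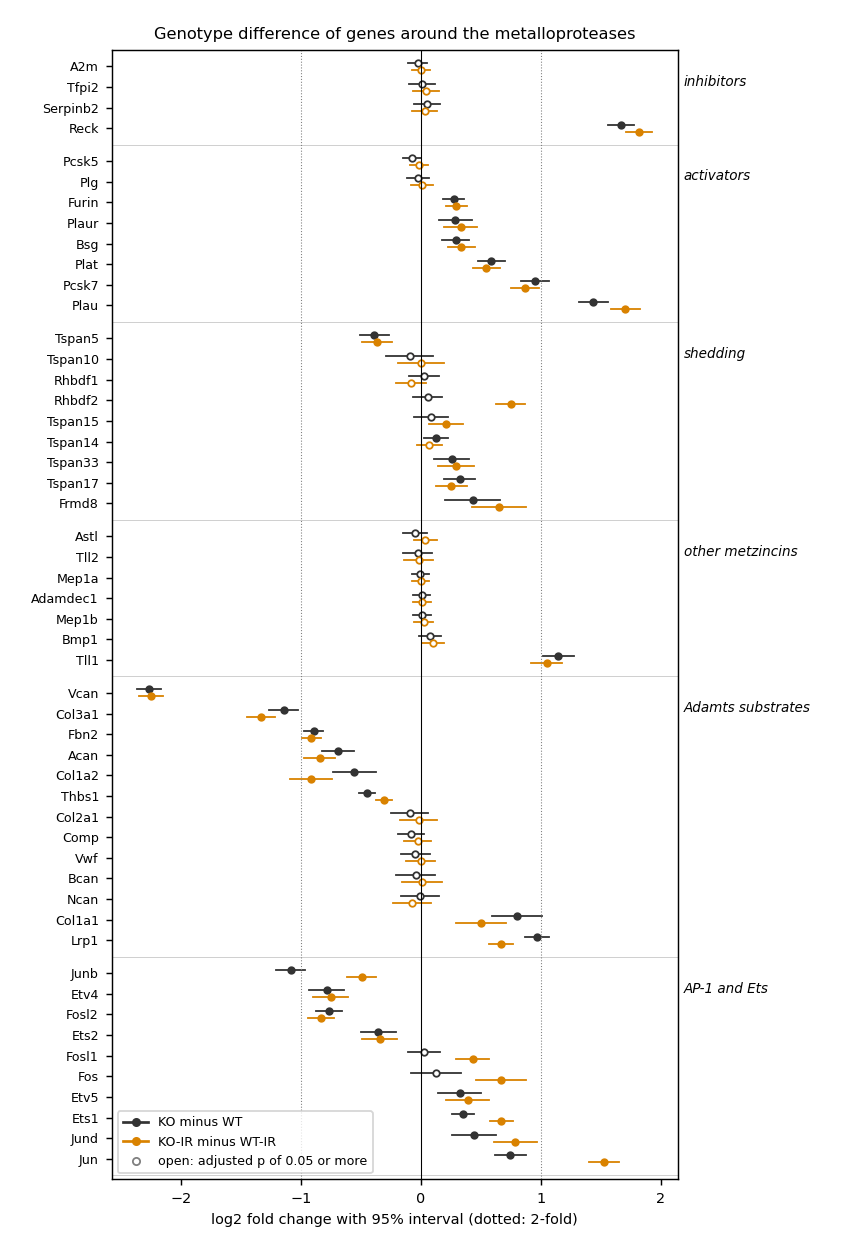
Log2 fold change between the genotypes of genes that inhibit, activate or regulate the proteases, of related proteases, of Adamts substrates and of AP-1 and Ets factors, with 95% intervals; dark points are KO minus WT, orange points KO-IR minus WT-IR, and open points have an adjusted p of 0.05 or more. Reck (1.67 and 1.82) and Plau (1.43 and 1.70) are the highest in their groups and Vcan (-2.26 and -2.25) the lowest in its group.

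The nearest measured genes on the chromosome were compared with the 5 called members, 5 on each side, by their order in RefSeq. Around each of Mmp16, Adam8 and Adamtsl5, 0 of 10 neighbours were called in KO against WT. Over all probe sets the share called was 4.42%. Beside Mmp16, Osgin2, at -0.55 (adjusted p = 3.47e-06), Decr1, at -0.36 (adjusted p = 0.000606), and Tmem64, at -0.27 (adjusted p = 0.00118), fell without reaching 2-fold. Rmdn1 rose there by 0.41 (adjusted p = 0.000265). The neighbours of Adam8 lay between -0.20 and 0.06 and those of Adamtsl5 between -0.16 and 0.22. Around Mmp2, 1 of 10 was called, Fto, at -1.29 (adjusted p = 1.82e-09). Also beside Mmp2, Irx5, at -0.95 (adjusted p = 4.58e-09), and Irx3, at -0.76 (adjusted p = 8.63e-07), fell without reaching 2-fold, while the 5 neighbours on the other side lay between -0.10 and -0.01. Around Adam12, 1 of 10 was called, Bccip, at -1.05 (adjusted p = 0.000183). Mgmt, at -0.73 (adjusted p = 2.14e-05), and Uros, at -0.16 (adjusted p = 0.0312), fell there without reaching 2-fold, while Ptpre rose by 0.26 (adjusted p = 0.000567). These genes were chosen for their position, and their values were seen before they were named.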

How the data were processed

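RNA of 12 MEF samples (3 in each of the 4 groups) was reduced of ribosomal RNA and hybridised to Affymetrix Mouse Exon 1.0 ST arrays. The authors made the deposited log2 values in Gene Spring GX, and each probe set had a median within 5e-07 of 0 over the 12 arrays, so absolute signal, dim-probe filters and a mean-variance trend could not be used. How exon signals were summarised, and on which genome build, is not given in the sources used here. Gene symbols came from the platform annotation: 14996 probe sets had 1 symbol, 1019 several and 740 none. All 66 members matched a RefSeq gene. Pak1 was not analysed here, so genotypes rest on the labels in this report. The paper checked Pak1 protein in the WT and KO MEFs by western blot.

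All 16755 probe sets were fitted in limma 3.58.1 (R 4.3.3; lmFit, eBayes) as 4 group means, with 5 contrasts and Benjamini-Hochberg adjustment within each. The thresholds, an adjusted p under 0.05 and 2-fold, follow the methods. The fit was tested on simulated data. Figures were made with matplotlib 3.10.9 in Python 3.11.15.

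The members and gene lists were chosen with earlier results of these data known. Named with values were members past the adjusted p and 1.5-fold in any contrast, each Timp, Mmp2, Mmp9, Mmp14, Adam10, Adamts1, Adamts4 and Adamts5, and up to 4 genes of each list past 2-fold, with Reck. Other members past the adjusted p in the text, Rhbdf1, Rhbdf2, Fosl1, Ets1, the markers and the chromosome neighbours were added after their values were seen. The alternatives were the methods' t-test, a fit of only the groups compared, the replicate number as a block, quantile normalization, median-centred arrays, 1-symbol probe sets only, the robust option of eBayes, a 1.5-fold threshold and leaving out each array. The number of arrays limits the precision.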

Additional observations from a re-analysis of the deposited data

Results flagged for a closer look

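For 1 member and 6 genes around the proteases, the change with irradiation differed between the genotypes by the interaction test of limma across all probe sets. For Adamts1 the irradiation change in KO cells minus that in WT cells was -0.33 (adjusted p = 0.0204): it went up in each of 3 WT-IR arrays and overlapped between KO and KO-IR. This call was lost with the replicate number as a block (adjusted p = 0.0509) and on leaving out any one of 7 of the 12 arrays (adjusted p from 0.0517 to 0.062). Jun had an interaction of 0.78 (adjusted p = 0.000478), with a fall of 0.43 in WT cells and a rise of 0.35 in KO cells, both past the adjusted p (0.00393 and 0.00373). With the methods' t-test neither of these changes of Jun passed (adjusted p = 0.0707 and 0.196). Junb had an interaction of 0.59 (adjusted p = 0.00197), at -0.12 (adjusted p = 0.274) in WT cells and with a rise of 0.47 (adjusted p = 0.00034) in KO cells. Notch1 had 0.55 (adjusted p = 0.000354), at -0.10 (adjusted p = 0.2) in WT cells and with a rise of 0.45 (adjusted p = 4.62e-05) in KO cells. Rhbdf2 had 0.69 (adjusted p = 0.000917), at -0.06 (adjusted p = 0.648) in WT cells and with a rise of 0.64 (adjusted p = 4.62e-05) in KO cells. Fosl1 had 0.41 (adjusted p = 0.046), at -0.05 (adjusted p = 0.735) in WT cells and with a rise of 0.36 (adjusted p = 0.00498) in KO cells, and Ets1 had 0.32 (adjusted p = 0.0224), at 0.04 (adjusted p = 0.698) in WT cells and with a rise of 0.36 (adjusted p = 0.000438) in KO cells. Over 17 alternative fits the interactions of Jun, Junb, Notch1 and Rhbdf2 kept an adjusted p of at most 0.00952, while that of Fosl1 was lost in 13 (adjusted p up to 0.126) and that of Ets1 in 8 (adjusted p up to 0.0777).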

How the results depend on the processing

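The members called at 2-fold numbered 5 (KO against WT) and 4 (KO-IR against WT-IR) whichever array was left out, and 11 and 8 with a 1.5-fold threshold. Quantile normalization added Adamts1 (-1.01) to the 4 for KO-IR against WT-IR, which made 5. At the adjusted p, leaving out 1 array gave 24 to 30 members for KO against WT, 22 to 24 for KO-IR against WT-IR, 1 to 2 for WT-IR against WT, 1 to 2 for KO-IR against KO and 0 to 1 for the interaction. For WT-IR against WT the methods' t-test gave 0 and quantile normalization 3. For KO-IR against KO the t-test and the fit of only these groups gave 0, and quantile normalization, median-centred arrays and 1-symbol probe sets gave 2. Deviations from the group means correlated at -0.144 to 0.211 between same-numbered arrays and at -0.285 to 0.226 between the others. For WT-IR against WT these ranges were 0.0037 to 0.136 and -0.145 to 0.0388, and 2 of 3 arrays matched best with their own number. In the other 3 comparisons of 2 groups 0 or 1 did. The methods use an unpaired test, and the replicate numbers were not taken to pair the samples. With the replicate number as a block, the counts at the adjusted p were 28, 22, 1, 2 and 0 in the order above, and Adamts1 had an interaction of -0.33 with an adjusted p of 0.0509. For KO against WT, Adam11, Adam6a, Adamts10 and Mmp23 lost their call with the t-test (adjusted p from 0.0861 to 0.23). Mmp14 and Adamts5 lost their call between KO-IR and WT-IR with the t-test (adjusted p = 0.0646 and 0.0998), as did Adamts7 (0.0577). For KO-IR against KO, the rises of Jun, Junb, Fosl1, Ets1 and Rhbdf2 and the fall of Rhbdf1 had adjusted p from 0.0582 to 0.214 with the t-test. The fall of Jun between WT-IR and WT had 0.0707 with the t-test. No direction of a called result was reversed under the alternatives run.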
